A study of Mus musculus with 60 samples.

Results

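The aryl hydrocarbon receptor (AHR) target genes examined here were *Cyp1a1*, *Cyp1b1*, *Ahrr*, *Tiparp*, *Nqo1* and *Ahr*, the gene of the receptor itself. They were found as the transcripts of the count table whose identifiers carry these 6 symbols in the GENCODE M21 annotation, and 5 of the 6 had an entry among the 27665 transcripts counted. *Cyp1b1* was not analysed here. The set was chosen on measured values, because *Cyp1a1* was among the largest increases after auxin in these same libraries, so the members' changes under every treatment are given as a description, with no p-value. Where members meet the rule used for calls over all genes, this is counted beside the share of all genes that meet it and supports nothing.

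Nascent RNA was measured by EU-seq: cells were given 5-ethynyl uridine for 20 min, and the RNA that had taken it up was captured and sequenced. The cells were E14 mouse embryonic stem cells (mESCs) and, derived from these through epiblast stem cells, neuronal progenitors (NPCs). The 60 libraries formed 20 groups. mESCs were grown in N2B27 medium with leukaemia inhibitory factor and inhibitors of MEK and GSK3, and controls received the solvent DMSO per the general protocol. In GFP-AID-Rad21 cells (RAD21-AID), the cohesin subunit RAD21 carries an auxin-inducible degron and is lost after 500 µM indole-3-acetic acid (IAA). As mESCs they contributed 2 control and 2 IAA 4 h libraries in an initial experiment and 12 and 12 in an additional one. As NPCs they contributed 2 control libraries and 2 per time point at 1, 2 and 4 h of IAA. In GFP-AID-Ctcf mESCs (CTCF-AID), the insulator protein CTCF carries the same degron, and 4 controls and 4 libraries after 6 h of 500 µM IAA were made, 2 of each with titles that call them stranded. The treatments without IAA were 1 h of 10 µM A-485, which inhibits the acetyltransferases CBP and p300, in RAD21-AID NPCs (2 libraries, against the same 2 NPC controls), and 2 degrader compounds in mESCs with tagged CTCF. GFP-FKBP12F36V-Ctcf (Y226A/F228A) cells (CTCF-YF-AA), whose only CTCF is a mutant with a degron, contributed 2 control libraries and 2 per time point at 2 and 4 h of 200 nM dTAG13. Cells with the alleles bTAG-ΔN-CTCF and dTAG-CTCF-ΔC (CTCF-dN/dC) contributed 2 control libraries and 2 per treatment, all for 2 h: AGB1 at 100 nM, which removes the product of the first allele, dTAG13 at 100 nM, which removes that of the second, and both compounds. The doses are those of the titles where these give one. Titles of the CTCF-AID, CTCF-YF-AA and initial RAD21-AID mESC libraries give none, and their doses stand in the column headers of the counts. For the CTCF-dN/dC cells these headers give 200 nM dTAG13, unlike the titles. All titles of the CTCF-dN/dC libraries call them stranded. The degron alleles are present in controls and treated cells alike. Every IAA library was made from cells that also lost RAD21 or CTCF, and no library was made from cells without a degron that received IAA, so that IAA itself and the loss of the protein cannot be told apart. Neither can time in IAA and time since the loss of the protein.

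AHR is a transcription factor of the basic helix-loop-helix PAS family that is held in the cytoplasm by HSP90 and co-chaperones such as p23 until it binds a ligand. Known ligands include dioxins and indoles derived from tryptophan, and IAA is itself an indole. The bound receptor enters the nucleus, pairs with ARNT and binds DNA at a short core, GCGTG. Its best known target is *Cyp1a1*, which encodes a monooxygenase that oxidizes many of the ligands, and *Cyp1b1* encodes a related enzyme. *Ahrr* encodes a repressor that competes with AHR for ARNT, and *Tiparp* encodes an ADP-ribosyltransferase that limits AHR activity, so both genes take part in negative feedback. *Nqo1* encodes a reductase that detoxifies quinones, and it is also a target of NRF2, the main factor of the oxidative stress response.

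The genes were read on the GRCm38 build as follows. *Cyp1a1* (ENSMUST00000034865.5, chr9:57697613-57703824, + strand) covers 6.21 kb. *Ahrr* (ENSMUST00000022059.13, chr13:74211118-74292331, - strand) covers 81.2 kb. *Tiparp* (ENSMUST00000047906.9, chr3:65528410-65555518, + strand) covers 27.1 kb. *Nqo1* (ENSMUST00000003947.8, chr8:107388225-107403206, - strand) covers 14.98 kb, and *Ahr* (ENSMUST00000116436.8, chr12:35497974-35535038, - strand) covers 37.1 kb. Reads were counted over the whole gene body, introns included. A counted lincRNA on the opposite strand, *Gm48236*, overlaps 618 bp of *Ahr*, and an annotated pseudogene, 4931440P22Rik, overlaps 970 bp of *Tiparp*. The sources used here do not state whether counting used the strand, so reads from those stretches cannot be assigned to one gene.

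Sequence around the start sites is shown because it holds the letters that AHR and ARNT bind. RefSeq promoter windows of GRCm38.p6, from 250 bases before to 50 bases after the start, were searched for GCGTG on both strands (CACGC on the strand printed). These 5 letters are also a form of the core that the hypoxia factors bind with ARNT, and a match is a description of letters, not a bound site. The window of *Cyp1a1* (chr9:57697363-57697662, + strand) held 1 core, that of *Ahrr* (chr13:74292282-74292581, - strand) 3 and that of *Tiparp* (chr3:65528197-65528496, + strand) 1. They are printed 5′ to 3′ with the cores in capitals, together with the 300 bases upstream of *Cyp1a1* that run from position -1404 to -1105 relative to its start (chr9:57696209-57696508, + strand) and hold 5 cores. That stretch was picked, for *Cyp1a1* only, as the one with most cores among those compared in the 1500 bases before the start. The shares given below for promoter windows do not apply to it.
*Cyp1a1*, upstream stretch: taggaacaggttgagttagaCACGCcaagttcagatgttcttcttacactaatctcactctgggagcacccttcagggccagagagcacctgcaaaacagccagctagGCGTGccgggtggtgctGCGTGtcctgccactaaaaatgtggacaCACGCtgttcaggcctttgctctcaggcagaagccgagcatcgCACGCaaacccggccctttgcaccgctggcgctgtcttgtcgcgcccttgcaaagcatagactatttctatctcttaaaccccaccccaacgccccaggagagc
*Cyp1a1*, promoter window: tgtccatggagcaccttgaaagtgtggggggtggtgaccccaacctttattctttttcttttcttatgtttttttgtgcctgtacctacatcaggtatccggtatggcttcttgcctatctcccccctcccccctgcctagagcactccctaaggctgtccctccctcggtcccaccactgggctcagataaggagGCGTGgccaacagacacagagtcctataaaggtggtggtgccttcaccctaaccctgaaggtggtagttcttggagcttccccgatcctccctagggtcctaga
*Ahrr*, promoter window: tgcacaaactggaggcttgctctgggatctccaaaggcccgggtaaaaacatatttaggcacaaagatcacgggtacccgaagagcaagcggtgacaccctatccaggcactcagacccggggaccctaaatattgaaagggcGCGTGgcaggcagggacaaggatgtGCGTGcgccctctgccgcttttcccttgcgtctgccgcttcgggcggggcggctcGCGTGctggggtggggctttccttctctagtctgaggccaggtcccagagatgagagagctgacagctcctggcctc
*Tiparp*, promoter window: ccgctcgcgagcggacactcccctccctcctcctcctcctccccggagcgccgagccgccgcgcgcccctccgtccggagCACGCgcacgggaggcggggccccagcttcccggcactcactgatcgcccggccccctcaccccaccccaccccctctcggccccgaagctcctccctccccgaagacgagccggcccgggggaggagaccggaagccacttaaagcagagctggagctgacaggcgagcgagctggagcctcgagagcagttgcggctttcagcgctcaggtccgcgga
Of 32851 promoter windows of this length, 32.4% held at least 1 core and 3.92% held 3 or more. The window of *Cyp1b1* held 1 core, and in that of *Nqo1* these letters did not occur. Over the 1500 bases before the start site, where the median promoter had 1 core, *Cyp1a1* had 12, *Cyp1b1* 10, *Ahrr* 6, *Tiparp* 6 and *Nqo1* 1. As many cores as at *Cyp1a1* occurred upstream of 0.0822% of all start sites, as many as at *Cyp1b1* upstream of 0.225%, as many as at *Ahrr* or *Tiparp* upstream of 2.64% and as many as at *Nqo1* upstream of 61.9%.

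The libraries held between 4027449 and 21898781 counts (median 13950370.5). The labels do not say that replicates came from separate cultures, so their spread, and every p-value given for other genes, may be technical. The labelled cell types matched their markers. The summed level of 8 mESC markers was 3192 to 4813 CPM (counts scaled to library size) in the mESC controls and 19.1 to 25.1 in the NPC controls, and that of 8 NPC markers was 63.4 to 124 and 1065 to 1114. Neuron markers summed to 242 to 244 CPM in the NPC controls, against 18.1 to 67.3 in mESCs, and endoderm markers to 63.6 to 65.2, against 2.97 to 41.8 in mESCs. The part of these cells in the results was not tested. Levels are CPM after TMM scaling within each comparison, so the same control can differ slightly between comparisons. A log2 fold change has the median of expressed genes subtracted, and a gene is said to be called where the edgeR quasi-likelihood test gave an adjusted p under 0.05 over all genes tested and the change was at least 2-fold. The p-values test the change before that subtraction, while direction, value and interval are given after it. A gene past the adjusted p alone can thus have an interval that includes 0. The median subtracted was largest for A-485, at 0.12. Fold changes carry a standard error (SE) and, in brackets, a 95% confidence interval.

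Before any treatment, *Cyp1a1* transcription differed widely between the cultures. Its mean level was 30.2 CPM in the additional RAD21-AID mESC controls, 4.23 in CTCF-AID, 2.51 in the initial RAD21-AID mESC controls, 1.21 in CTCF-dN/dC, 0.818 in CTCF-YF-AA and 0.205 in NPCs. Only the controls of CTCF-dN/dC and CTCF-YF-AA overlapped among neighbours in this order. The kind of library, stranded by title or not, also differed between these lines and cannot be told apart from the line for CTCF-dN/dC. In a joint fit the additional mESC controls were 3.43 log2 units (SE 0.16) above the initial ones for *Cyp1a1*, 1.26 for *Ahrr*, 0.63 for *Tiparp* and 0.41 for *Nqo1*, and the difference was -0.37 for *Ahr*. The libraries of the pair of experiments did not overlap for any of the 5 genes, and how often this held over all genes was not counted. In edgeR 71.4% of all genes tested had an adjusted p under 0.05, so nothing is read from this. Of the 5, 2 were called, where 10.4% of all genes tested were. The experiments also differ in the wording of their protocols: that of the initial RAD21-AID, CTCF-AID and CTCF-YF-AA libraries describes an inhibitor, triptolide, that none of their titles or treatment labels names.

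Untreated NPCs minus the additional mESC controls gave a log2 difference of -7.09 for *Cyp1a1* (SE 0.20, [-7.50, -6.68]), -2.78 for *Ahrr*, -1.22 for *Nqo1*, -0.35 for *Tiparp* and 0.64 for *Ahr*. Here 3 of the 5 were called, all lower in NPCs, against 45.5% of all genes tested. The NPCs and the additional mESCs lie in different batches, so cell type and batch cannot be told apart between them, here or below. In the additional experiment 1 library of each group was in batch CC52 and 11 were in CC53. Against the initial mESC controls the differences were -3.66 for *Cyp1a1* [-4.67, -2.66], -1.52 for *Ahrr*, -0.82 for *Nqo1*, 0.28 for *Tiparp* and 0.26 for *Ahr*, so that the side on which *Tiparp* lies depends on the mESC controls used. Per kb of gene body, *Tiparp* was the most transcribed member in NPC controls at 3.49 CPM per kb, followed by *Ahr* at 1.78 and *Nqo1* at 1.46, with *Cyp1a1* at 0.0330 and *Ahrr* at 0.0234. In the additional mESC controls *Cyp1a1* stood at 4.87 CPM per kb, beside *Tiparp* at 4.67, *Nqo1* at 3.57, *Ahr* at 1.199 and *Ahrr* at 0.168.

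**Figure D1:**
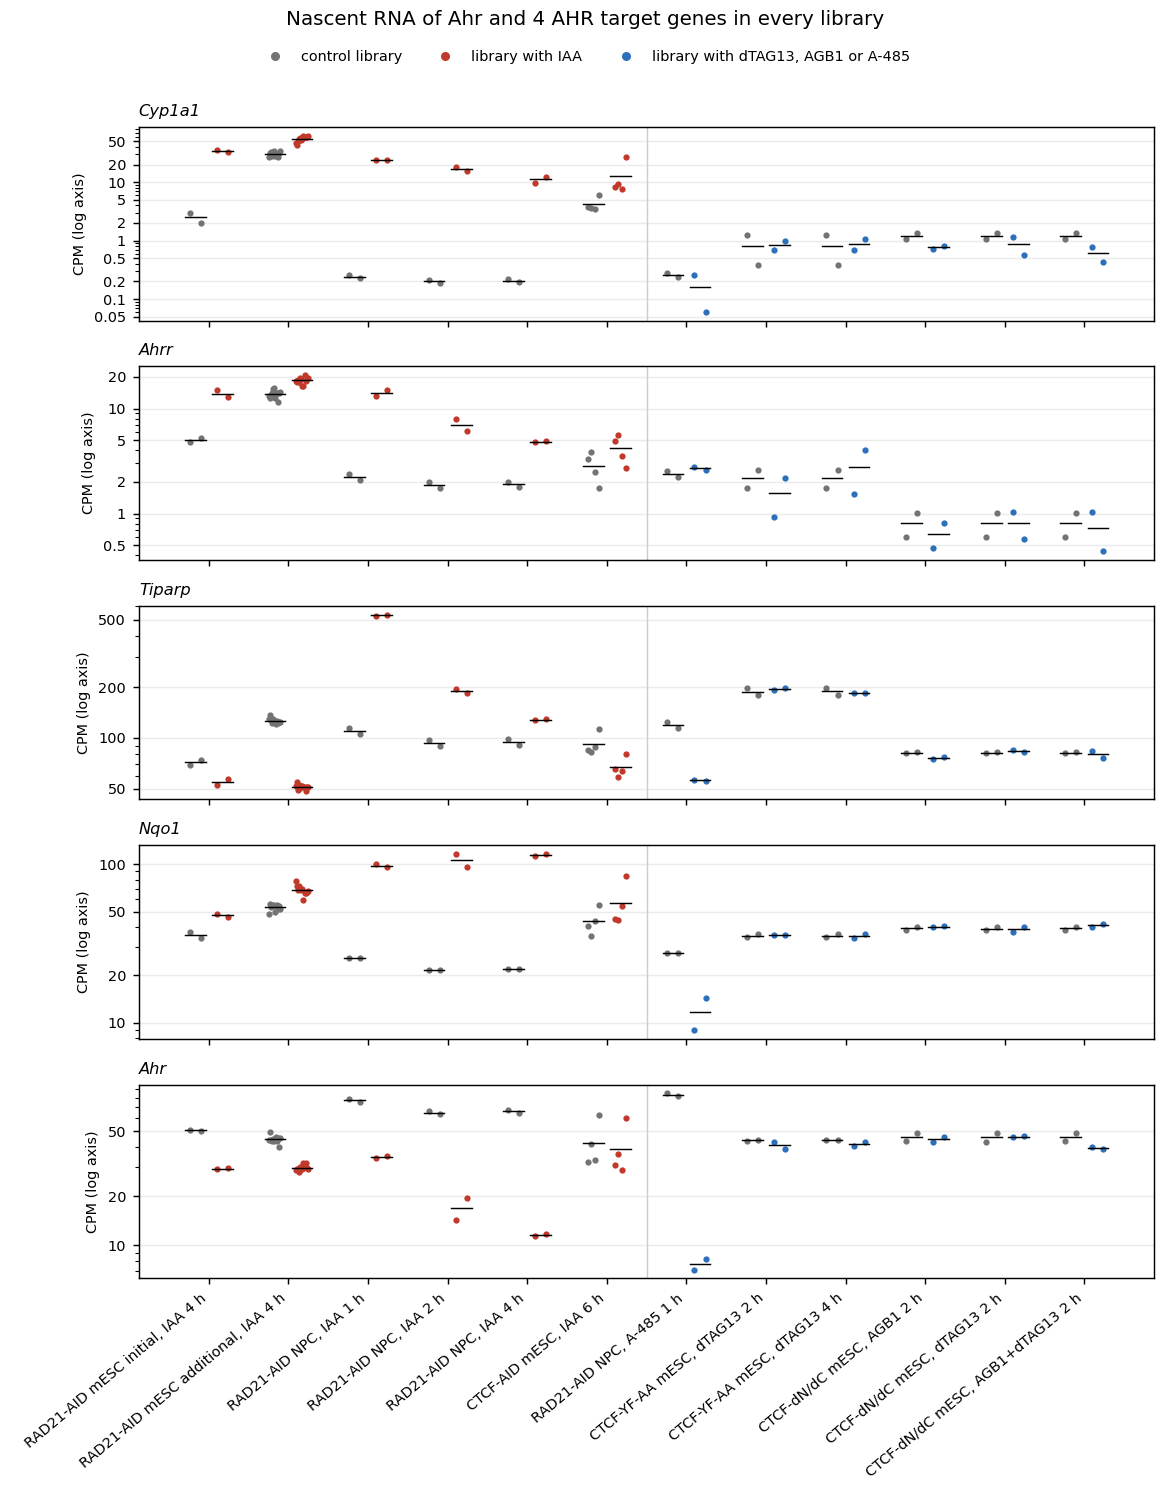
Level of each gene in each library, in TMM-scaled CPM on a log axis, with 1 point per library, a line at each group mean and the comparisons along the horizontal axis (controls grey, IAA red, other treatments blue). Cyp1a1 read 0.192 and 0.218 CPM in the untreated NPCs of the 4 h comparison and above 9.8 CPM in every NPC library with IAA.

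*Cyp1a1*, the monooxygenase gene, was higher in every IAA library than in any control of the same comparison. In the initial RAD21-AID mESCs the controls read 3.00 and 2.02 CPM and the IAA 4 h libraries 35.1 and 32.3. The change was 13.6-fold (log2 3.76, SE 0.18, [3.41, 4.12]). In the additional mESC experiment the 12 controls ran from 26.4 to 33.8 CPM (median 30.5) and the 12 IAA libraries from 43.3 to 62.3 (median 55.5). The groups again did not overlap, but the change was 1.82-fold (log2 0.87, SE 0.05, [0.78, 0.96]). After IAA the means of both mESC experiments, 33.7 and 55.0 CPM, lay closer together than before it, 2.51 and 30.2 CPM.

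In NPCs each control library held 4 reads of *Cyp1a1*. The 1 h IAA libraries held 328 and 370 reads, or 23.8 and 23.6 CPM against 0.255 and 0.225 in the controls. After 2 h the levels were 18.3 and 15.7 CPM, and after 4 h they were 9.83 and 12.4 CPM. The fold change was thus highest at 1 h and lowest at 4 h of the times measured, with intervals that overlapped. At 4 h the level was still 51.5-fold above the controls. The log2 fold changes were 6.56 [6.07, 7.05], 6.32 [5.72, 6.91] and 5.69 [5.08, 6.29], and the 3 times share the same 2 controls.

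In CTCF-AID mESCs the controls of *Cyp1a1* read 3.77, 3.67, 3.53 and 5.93 CPM and the IAA 6 h libraries 8.12, 9.31, 7.66 and 26.6. All 4 IAA libraries lay above all 4 controls, and the stranded replicate 2 was far above the others in both groups. The change was 2.99-fold (log2 1.579, SE 0.38, [0.71, 2.45]). It was not called in this fit. Libraries of the same number deviated together, and with the replicate number as a block the value was 1.583, with an SE of 0.19, and was called. Without the stranded IAA replicate 2 it was 1.04 [0.47, 1.60].

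Without IAA no such increase was measured. *Cyp1a1* held between 1 and 12 reads in each of these libraries, below the minimum for testing, so these values come from a fit without a filter. After A-485 the NPC libraries held 4 and 1 reads against 4 and 4 in the controls (log2 -0.80 [-3.08, 1.47]). In CTCF-YF-AA cells the controls held 5 and 4 reads, the 2 h dTAG13 libraries 3 and 9 (log2 0.32 [-1.67, 2.32]) and the 4 h libraries 5 and 10 (log2 0.37 [-1.47, 2.20]). In CTCF-dN/dC cells the controls held 9 and 12 reads, and the log2 changes were -0.65 [-1.80, 0.50] after AGB1, -0.54 [-1.67, 0.59] after dTAG13 and -0.96 [-2.15, 0.23] after both. The libraries with AGB1, alone or with dTAG13, lay below both controls in CPM, and those with dTAG13 alone overlapped them. All 6 intervals include 0 and are wide. The CTCF-YF-AA intervals hold the 1.579 of CTCF-AID and the 0.87 of the additional RAD21-AID mESCs, so changes of those sizes were not excluded there. The A-485 interval holds 0.87 but not 1.579, and the CTCF-dN/dC intervals hold neither. All rest on few reads. Doses, times, lines and, in part, the kind of library differ between these treatments and the IAA ones, so no test was made between them.

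**Figure D2:**
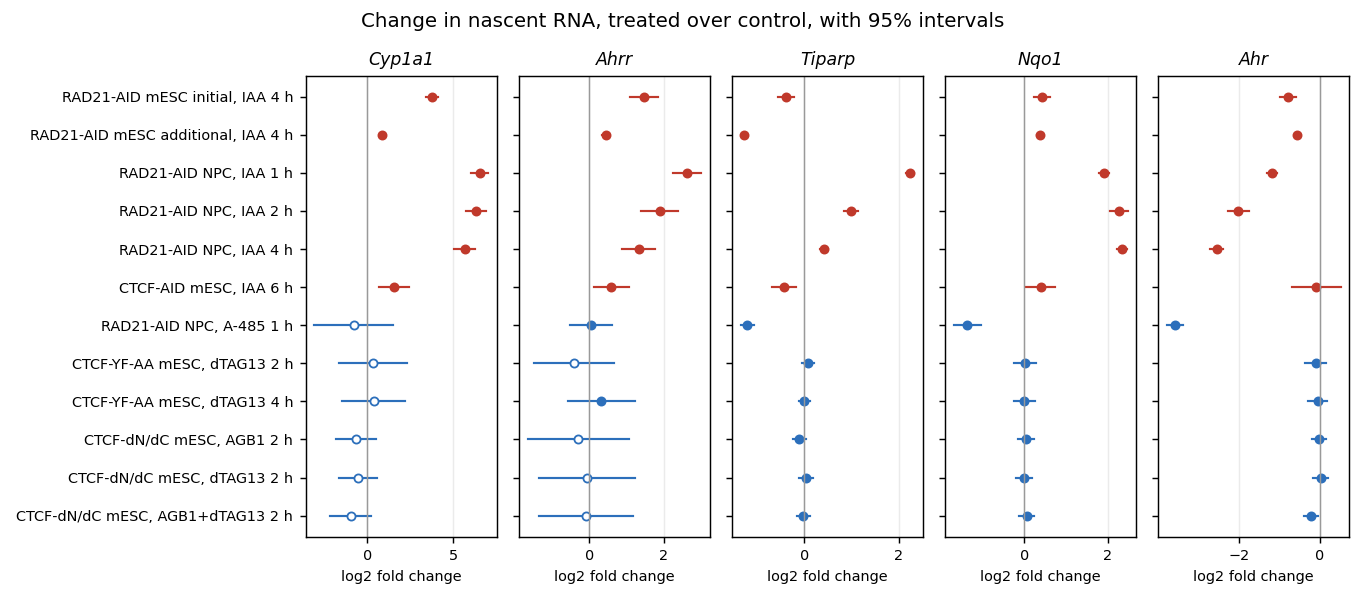
Log2 fold change of each gene against its own controls in the 6 comparisons with IAA and the 6 without, with 95% confidence intervals as bars. Open points are genes below the count minimum. Cyp1a1 reaches 6.56 in NPCs after 1 h of IAA, and its 6 intervals without IAA all include 0.

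*Ahrr*, the repressor gene, moved in the same direction as *Cyp1a1* in the IAA comparisons, with smaller changes. In the initial RAD21-AID mESCs it read 4.81 and 5.23 CPM in the controls and 14.9 and 12.9 after IAA, a 2.76-fold change (log2 1.47, SE 0.19). In the additional experiment the controls ran from 11.4 to 15.8 CPM (median 13.8) and the IAA libraries from 16.3 to 20.8 (median 18.6), a log2 change of 0.45 (SE 0.05). Neither pair of groups overlapped. In NPCs the controls read 2.36 and 2.08 CPM, and the 1 h IAA libraries 13.1 and 14.9, a 6.22-fold change (log2 2.64, SE 0.18). The level was then 7.93 and 6.10 CPM at 2 h (3.71-fold) and 4.81 and 4.89 at 4 h (2.50-fold). In CTCF-AID cells the groups overlapped, with controls from 1.75 to 3.83 CPM and IAA libraries from 2.71 to 5.65 (log2 0.59 [0.12, 1.05]). Without IAA the log2 values were 0.04 [-0.53, 0.62] after A-485, -0.41 and 0.32 after 2 and 4 h of dTAG13 in CTCF-YF-AA, and -0.30, -0.06 and -0.09 after AGB1, dTAG13 and both in CTCF-dN/dC, with every interval including 0.

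*Tiparp*, the other feedback gene, went in opposite directions in the pair of cell types. In NPCs the controls read 115 and 106 CPM and the 1 h IAA libraries 526 and 536, a 4.72-fold change (log2 2.24, SE 0.04). At 2 h the libraries read 195 and 184 CPM against 96.7 and 89.2 (1.98-fold), and at 4 h they read 128 and 129 against 98.5 and 90.5 (1.33-fold, log2 0.41 [0.32, 0.50]). This was the steepest decline from 1 to 4 h among the members. In mESCs, *Tiparp* was lower after IAA: 69.0 and 74.5 CPM in the initial controls against 52.4 and 57.01 (log2 -0.39, SE 0.08), and 121 to 138 CPM (median 126) in the additional controls against 48.8 to 55.0 (median 51.5), 2.44-fold lower (log2 -1.29, SE 0.02). In CTCF-AID cells it ran from 83.1 to 113 CPM in controls and from 58.6 to 80.2 after IAA, also without overlap (log2 -0.43 [-0.68, -0.18]). After A-485, without IAA, it was lower in NPCs, at 56.3 and 56.0 CPM against 124 and 114 (log2 -1.21, SE 0.07). In the CTCF lines treated with dTAG13 or AGB1 the log2 values lay between -0.11 and 0.07, each with an interval that included 0.

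*Nqo1*, the quinone reductase gene, was higher after IAA in NPCs at every time, with a different time course. Its controls read 25.5 and 25.7 CPM and its 1 h IAA libraries 99.9 and 96.0, a 3.75-fold change (log2 1.91, SE 0.06). At 2 h the libraries read 116 and 95.6 CPM (4.77-fold) and at 4 h 112 and 115 CPM (5.06-fold, log2 2.34, SE 0.06), against 21.9 and 22.0 in the controls on that scale. Unlike *Cyp1a1*, *Ahrr* and *Tiparp*, its fold change was not lower at 4 h than at 1 h. In mESCs the changes were small: 37.1 and 34.2 CPM against 48.8 and 46.4 in the initial experiment (log2 0.42, SE 0.10), and 48.4 to 56.2 against 59.3 to 78.7 CPM in the additional one (log2 0.37, SE 0.03). Neither pair of groups overlapped. In CTCF-AID cells they did (log2 0.39 [0.05, 0.74]). After A-485 *Nqo1* read 9.01 and 14.4 CPM against 27.5 and 27.7 (log2 -1.36, SE 0.15), and in the other treatments without IAA its log2 values lay between -0.01 and 0.06.

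*Ahr*, which encodes the receptor, was lower after IAA in all RAD21-AID comparisons. In NPCs the controls read 78.7 and 75.6 CPM and the 1 h libraries 34.2 and 35.1, 2.27-fold lower (log2 -1.18, SE 0.06). The libraries read 14.4 and 19.6 CPM at 2 h (4.04-fold lower) and 11.4 and 11.7 at 4 h (5.83-fold lower, log2 -2.54, SE 0.08), so the fold decrease was larger at each later time. In the initial mESCs 51.0 and 50.4 CPM compared with 29.3 and 29.6 (1.72-fold lower, log2 -0.78, SE 0.10), and in the additional ones 40.1 to 49.2 CPM (median 44.2) with 28.2 to 32.0 (median 29.4, 1.48-fold lower, log2 -0.57, SE 0.03). The CTCF-AID groups overlapped, with 32.1 to 63.0 CPM in controls and 28.9 to 60.1 after IAA (log2 -0.09 [-0.69, 0.51]). After A-485 *Ahr* read 7.10 and 8.19 CPM against 84.8 and 81.5, 11.8-fold lower and the largest decrease of any member under any treatment (log2 -3.56, SE 0.10). In the lines treated with dTAG13 or AGB1 the values lay between -0.11 and 0.01, apart from AGB1 with dTAG13 at -0.22 [-0.40, -0.04].

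**Figure D3:**
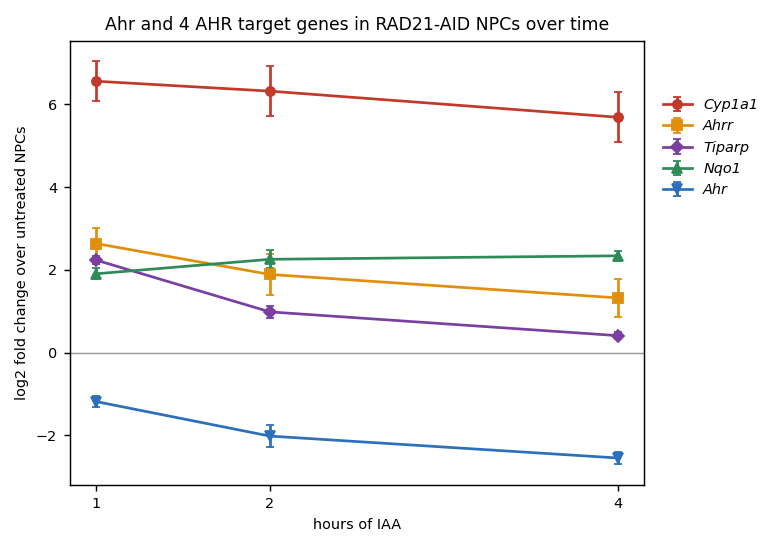
Log2 fold change of the 5 genes in RAD21-AID NPCs after 1, 2 and 4 h of IAA, each against the same 2 controls, with 95% confidence intervals as bars. Cyp1a1, Ahrr and Tiparp are highest at 1 h, Nqo1 runs from 1.91 to 2.34, and Ahr falls from -1.18 to -2.54.

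The number of members that met the rule of a call stands beside the share of all genes tested that met it, and nothing is read from these counts, since the members were chosen on these contrasts. In the initial RAD21-AID mESCs 2 of 5 were called, both higher, against 0.461% of genes. In the additional experiment 1 was, *Tiparp*, lower, against 0.845%. In NPCs all 5 were called at 1 h (4 higher and *Ahr* lower, against 0.593% of genes), 4 at 2 h (1.5%) and 4 at 4 h (3.57%), with *Tiparp* outside the rule at both later times. In CTCF-AID cells 0 were, against 1.45%, and *Cyp1a1* was with the replicate number as a block. A-485 called 3 of the 4 members that were tested, all lower, against 21% of genes. The other treatments without IAA called 0 members, against 0.814% and 1.03% of genes after 2 and 4 h of dTAG13 in CTCF-YF-AA and 0.404%, 0% and 0.807% after AGB1, dTAG13 and both in CTCF-dN/dC. In these 5 comparisons 3 or 4 members were tested. For dTAG13 in CTCF-dN/dC, edgeR and DESeq2 each called 0 of 13618 genes, and 530 had an unadjusted p under 0.05. *Tiparp* at 2 h of IAA was a near miss at 1.98-fold, and the smallest change called in an IAA comparison was that of *Ahr* at 1 h, 2.27-fold.

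The response to 4 h of IAA differed in size between NPCs and the additional mESCs, in a fit of both with an interaction term (33.4% of all genes had an adjusted p under 0.05 in it). The log2 fold change in NPCs minus that in mESCs was 4.82 for *Cyp1a1* (SE 0.40, [4.02, 5.63]), 1.98 for *Nqo1* (SE 0.08), 1.71 for *Tiparp* (SE 0.06), 0.89 for *Ahrr* (SE 0.21) and -1.96 for *Ahr* (SE 0.08). Levels after IAA gave another order: at 4 h *Cyp1a1* read 9.83 and 12.4 CPM in NPCs and at least 43.3 CPM in the additional mESCs. Between the mESC experiments, the additional minus the initial fold change was -2.89 for *Cyp1a1* (SE 0.24), -1.01 for *Ahrr*, -0.89 for *Tiparp*, -0.04 for *Nqo1* and 0.22 for *Ahr*. NPCs were not fitted together with the initial mESCs. There the log2 fold change was 1.47 for *Ahrr* and 3.76 for *Cyp1a1*, against 1.32 and 5.69 in NPCs at 4 h. The side on which *Ahrr* lies thus depends on the mESC experiment used, and that of the other members does not.

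Other genes of the AHR pathway were described from a list of 19, of which 18 were counted, and 1 of them was called in 1 IAA comparison. It held the receptor's partners and chaperones *Arnt*, *Arnt2*, *Hsp90aa1*, *Hsp90ab1* and *Ptges3* and 14 further genes known to respond to AHR in other tissues. In the IAA comparisons 0 genes of the list were called by edgeR in the initial mESCs (11 tested, 1 with an unadjusted p under 0.05), the additional mESCs (12 tested, 7), NPCs at 1 h (10 tested, 4) and 2 h (10 tested, 4) and CTCF-AID (11 tested, 2), and DESeq2 also called 0 in each. At 4 h in NPCs 1 of 11 was called, where 3.57% of all genes tested were. It was *Htatip2*, a metastasis suppressor gene, from 0.50 to 1.23 CPM (log2 1.24, SE 0.45, edgeR adjusted p 0.025), and DESeq2 did not call it. At that time 6 genes of the list rose and 3 fell past the adjusted p alone, 9 of 11 tested, where 39.5% of all genes tested passed it. The list median was 0.14, against -0.02 over all genes tested. *Nfe2l2*, which encodes NRF2, rose from 159 to 320 CPM in NPCs at 1 h (log2 0.98, edgeR adjusted p 4.99e-14), just under 2-fold, and its log2 change was 0.57 at 2 h and 0.48 at 4 h. In the additional mESCs *Htatip2* (0.75) and *Slc46a3* (0.44) rose past the adjusted p alone, and 4 genes of the list fell, where 58.5% of all genes passed it. One of those that fell, *Arnt*, had an interval that included 0 (log2 -0.036 [-0.078, 0.0057]), since the p-value tests the change before centring. *Aldh3a1*, *Fgf21*, *Gsta1*, *Ido1*, *Il22* and *Scin* were too low to test in any comparison, and *Cyp1a2*, the gene next to *Cyp1a1* in its family, was tested only in the additional mESCs (log2 0.20). Without IAA, A-485 called 4 of 10, all lower, where 21% of all genes tested were called, 3231 lower and 132 higher. The 4 were *Arnt2* (-1.51), *Nfe2l2* (-1.87), *Ugt1a6a* (-1.496) and *Ugt1a6b* (-4.27). The *Ugt1a6* genes are glucuronosyltransferase genes of 1 locus. The counted body of *Ugt1a6a* (chr1:88134809-88218997) lies wholly inside that of *Ugt1a6b* (chr1:88103252-88219003) on the same strand. How reads were split between them is uncertain, and their calls are not independent. In the CTCF lines treated with dTAG13 or AGB1 0 were called in each of the 5 comparisons by edgeR, with 0 to 2 in each at an unadjusted p under 0.05, and 0 by DESeq2.

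Since *Nqo1* is also an NRF2 target, 12 further NRF2 targets were read in the same fits, and in NPCs 3, 10 and 11 of them rose past the adjusted p alone at 1, 2 and 4 h, where 16.0%, 14.6% and 39.5% of all genes tested passed it in either direction. At 1 h 0 were called by edgeR or DESeq2, and 6 had an unadjusted p under 0.05. At 2 h *Gclc* (log2 1.14) and *Slc7a11* (1.04), which supply glutathione synthesis, and *Osgin1* (1.12) were called, where 1.5% of all genes tested were. At 4 h 5 were called, *Slc7a11* (1.80), *Osgin1* (1.66), *Srxn1* (1.54), *Gclc* (1.47) and *Hmox1*, the haem oxygenase gene (1.11), where 3.57% of all genes tested were. The list median at 4 h was 0.98 against -0.02 over all genes tested. In the additional mESCs 0 were called, while 7 rose and 3 fell past the adjusted p alone, as did 58.5% of all genes. In CTCF-AID 0 were called (3 had an unadjusted p under 0.05, and DESeq2 also called 0), and *Srxn1* passed the adjusted p alone (log2 0.99, edgeR adjusted p 0.00059). A-485 called 4 of 12, all lower, where 21% of all genes tested were called, 3231 lower and 132 higher. The 4 were *Osgin1* (-3.36), *Slc7a11* (-2.67), *Me1* (-1.31) and *Gclc* (-1.23). In the interaction of cell type and IAA all 12 had a larger log2 change in NPCs, from 0.24 for *Cat*, catalase, to 1.42 for *Srxn1*, sulfiredoxin. Their edgeR adjusted p-values ran up to 0.0385 (*G6pdx*), where 33.4% of all genes tested had one under 0.05 in either direction. Cell type and batch cannot be told apart in this contrast.

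**Figure D4:**
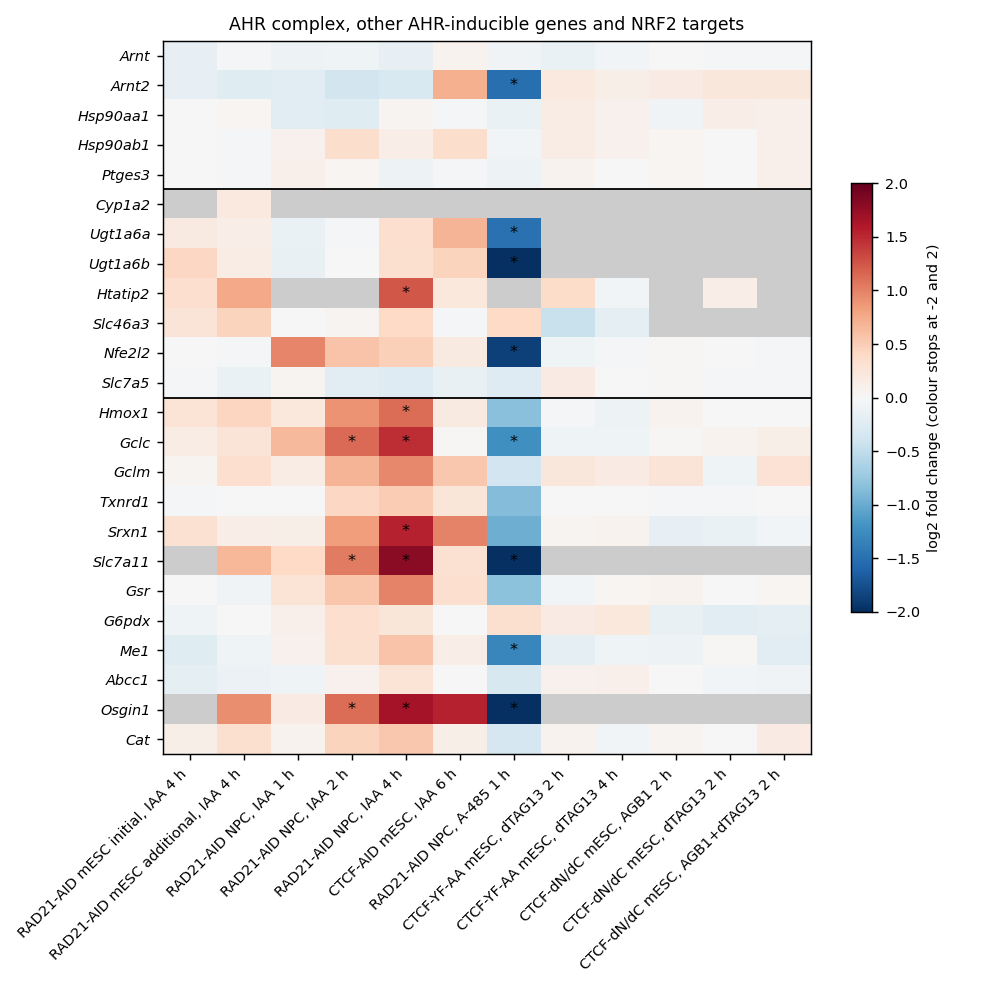
Log2 fold change, as colour that stops at -2 and 2, of the genes of the AHR pathway list (receptor complex, then inducible genes) and of the NRF2 targets, with 1 column per comparison. Grey cells were too low to test and asterisks mark calls; the NRF2 targets hold 5 asterisks in NPCs after 4 h of IAA and the AHR pathway list holds 1.

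The hypoxia list was read because HIF factors also pair with ARNT. Of its 12 genes, 11 were counted, and 9 to 11 were tested in each IAA comparison. None was called higher after IAA, and nothing is read from this. Of all 15177 to 16148 genes tested, only 36 to 132 were called higher in an IAA comparison. Those called after IAA were all lower: *Ndrg1* (-1.21) and *Pdk1* (-1.41) in the additional mESCs, *Pdk1* (-1.36) in CTCF-AID, and *Adm*, which encodes the vasodilator adrenomedullin, in NPCs at 2 h (-1.15) and 4 h (-1.73). In these comparisons 0.845%, 1.45%, 1.5% and 3.57% of all genes tested were called, in this order. A-485 called 5 of 11, all lower, where 21% of all genes tested were called, 3231 lower and 132 higher. The 5 were *Adm* (-3.44), *Egln3* (-3.38), *Ndrg1* (-3.20), *Pfkfb3* (-1.15) and *Vegfa* (-1.05).

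None of the nearest tested genes on either side of the members was called after IAA. In the IAA comparisons 0.461% to 3.57% of all genes tested were called, so nothing is read from this. For each member the nearest genes on both sides with enough counts to test were read, 10 genes in all, and in the 6 IAA comparisons edgeR called 0 of 60 gene and treatment pairs, with 25 at an unadjusted p under 0.05, and DESeq2 called 0. *Csk*, 52.0 kb from *Cyp1a1*, and *Edc3*, 4.72 kb from it, had log2 values between -0.02 and 0.39 with IAA, where *Cyp1a1* ran from 0.87 to 6.56. *Cyp1a2* lies between *Cyp1a1* and *Csk* but was not tested in every IAA comparison, so it was passed over. *Exoc3* and *Pdcd6* lie 2.41 and 11.2 kb from *Ahrr*, and *Nfat5* and *Nob1* lie 8.71 and 9.28 kb from *Nqo1*. The others lie far off: *Lekr1* and *Ssr3* 129 and 136 kb from *Tiparp*, and *Snx13* and *Tspan13* 350 and 480 kb from *Ahr*. *Lekr1* was higher in the initial mESCs after IAA (log2 0.87, SE 0.17), where *Tiparp* was lower. The only call among 120 gene and treatment pairs was *Nfat5*, a tonicity factor gene, after A-485 (log2 -1.43, SE 0.06, edgeR adjusted p 3.97e-11). That treatment called 21% of all genes tested.

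A search for genes that moved like *Cyp1a1* gave a short list. Among 13506 genes tested in all 6 IAA comparisons, 10 showed an increase of 2-fold or more in at least 3 of them, and these were ordered by Pearson r with *Cyp1a1* over its 12 log2 fold changes. The 5 highest were *Ahrr* (r = 0.95), *Slc26a2*, a sulfate transporter gene (0.93), *Nqo1* (0.90), *Ifitm1*, an interferon-induced transmembrane protein gene (0.89), and *Sema3f*, a semaphorin gene (0.89). The 12 values share controls, and candidates had to be high with IAA to enter, so r describes likeness in these comparisons only.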

How the data were processed

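EU-seq reads of 60 libraries were used as the read counts the authors deposited, 1 count per gene body (GRCm38/mm10), after alignment with BWA, removal of low mapping qualities with SAMtools 1.4 and of rRNA and tRNA reads with bedtools, and counting with HTSeq. For 1 h treatments, the counts with gene bodies capped at 90 kb were used, a cap that leaves the members' counts as they are. Of 27665 transcript identifiers, 27296 matched GENCODE M21 with their version, 159 without it and 210 not at all. Members, gene lists and tests were chosen with earlier results of these data known.

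Counts were tested with edgeR 4.0.16 in R 4.3.3 (quasi-likelihood F test, TMM), for genes whose mean count exceeded 20 in either group. P-values were adjusted by Benjamini-Hochberg over all genes tested, and the median log2 fold change of genes above 15 TPM was subtracted after the test. A call required both an adjusted p below 0.05 and a 2-fold or larger change. The kind of library was a covariate in CTCF-AID. Where a gene missed the filter its value came from a fit without it, and a symbol with several transcripts was read from the one with most counts. The pipeline was tested on simulated data. Named genes were the members, the list genes that were called or of largest change, the nearest tested gene on each side of a member and the 5 genes most like *Cyp1a1*. 1 gene of the AHR pathway list is not reported here. Of the *Ugt1a6* genes, overlapping gene bodies make the split of reads uncertain.

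Alternatives were DESeq2 1.42.0, no filter, no centring, the replicate number as a block, single batches or kinds of library, and each replicate left out of groups of 2 to 4. In CTCF-AID, libraries of the same number deviated together (r 0.449 to 0.794 over 4 pairs, taken from the data and the shared numbers in the titles), so the blocked value is given beside a result of the fit without the block where it changed a call. No 2 replicates of a group agreed within counting noise (chi-square per degree of freedom 1.40 to 29.5).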

Additional observations from a re-analysis of the deposited data

Results flagged for a closer look

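In CTCF-AID mESCs 1 library stood apart from the other 3 of its group, with a gap that took most of the group's range: 0.897 of the range for *Cyp1a1* in controls, 0.913 for *Cyp1a1* after IAA and 0.833 for *Tiparp* in controls. The library was the stranded replicate 2 each time, and 3 of 10 groups of 4 values were flagged in this way, where chance alone flags some groups too.

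The log2 change after 4 h of IAA in NPCs minus that in the additional mESCs differed from 0 (edgeR interaction, adjusted p under 0.05) for 22 of 35 list genes, where 33.4% of all genes did. In the AHR pathway list these were *Hsp90ab1* (0.18) and *Nfe2l2* (0.52). Among NRF2 targets they were *Hmox1* (0.69), *Gclc* (1.23), *Gclm* (0.65), *Txnrd1* (0.51), *Srxn1* (1.42), *Slc7a11* (1.15), *Gsr* (1.07), *G6pdx* (0.27), *Me1* (0.68), *Abcc1* (0.42), *Osgin1* (0.75) and *Cat* (0.24). In the hypoxia list they were *Hif1a* (0.13), *Vegfa* (1.02), *Slc2a1* (0.70), *Ndrg1* (1.29), *Pdk1* (1.42), *Epas1* (-0.70), *Pfkfb3* (-0.75) and *Adm* (-1.54). *Tiparp* moved up in every NPC library and down in every mESC library of the same contrast (a difference of 1.71), and this difference was not tested.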

How the results depend on the processing

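In the IAA comparisons the members kept their sign in 253 of 255 combinations of gene and alternative. Both exceptions were *Ahr* in CTCF-AID, at 0.12 without the stranded control replicate 2 and 0.08 without the stranded IAA replicate 1. For CTCF-AID the replicate block left *Cyp1a1* at 1.583 and turned it into a call, as did DESeq2, leaving out the stranded IAA replicate 1 (1.81) and using only the libraries not named stranded (1.26). The stranded ones alone gave 1.88. The block changed no other call of a member in the 12 treatment comparisons. *Tiparp* at 2 h in NPCs was called without NPC control replicate 1, without IAA 2 h replicate 2 or without centring. Of the AHR pathway list 1 gene was called at 1 h in NPCs without centring, and 0 at 4 h with DESeq2. With 1 replicate left out, *Cyp1a1* ranged from 3.49 to 4.05 in the initial mESCs, 6.46 to 6.64 at 1 h and 6.18 to 6.43 at 2 h in NPCs, -2.08 to -0.087 after A-485, -0.49 to 1.16 and -0.47 to 1.18 after 2 and 4 h of dTAG13 in CTCF-YF-AA, and -1.07 to -0.060 and -1.45 to -0.65 after dTAG13 and after AGB1 with dTAG13 in CTCF-dN/dC. The pathway counts ranged from 0 to 1 at 1 h and at 4 h in NPCs, and from 1 to 2 for the interaction. Against the initial mESC controls 2 members were called in untreated NPCs, and 3 against the additional ones. Limits are the 2 libraries in most groups, the 4 reads of *Cyp1a1* in each NPC control, which leave its fold changes with wide intervals, and its 1 to 12 reads in each library of the treatments without IAA and their controls. Over all genes DESeq2 called 20 in the initial mESCs where edgeR called 70, 49 against 94 at 1 h in NPCs, 68 against 114 after 2 h of dTAG13 in CTCF-YF-AA and 73 against 111 after both compounds in CTCF-dN/dC. In CTCF-AID it called more genes than edgeR, 312, and there and in the other comparisons both counts lay within 1.5 times of each other.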
